A study of Mus musculus with 6 samples.

Results

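The collagen genes are those whose symbol in the array annotation is Col, a number, the letter a and a number, as in Col1a1. They were found by that spelling alone, with no measured value used. The annotation of the 2 promoter array designs holds 36 of them among 16839 gene symbols. All 36 had at least 1 measured window, as did 16533 genes in all.

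The data are chromatin immunoprecipitations read on Agilent promoter arrays (ChIP-chip) from C2C12, mouse myoblasts grown as a line, which fuse into myotubes once serum is lowered. In the TEAD4 group (2 samples, called duplicates in the labels) the cells carried a retroviral vector for the transcription factor TEAD4 with a Flag-HA tag. In the control group (1 sample) they carried the empty vector. Both groups were puromycin-selected populations rather than clones, had spent 5 days in medium with 2% horse serum, were fixed with 0.4% formaldehyde for 10 min, and were precipitated with an antibody against Flag. The tagged factor came from a vector, so its level need not be that of the cell's own TEAD4. Nothing in the labels places the duplicates in separate cultures, so p-values measure only the spread between these samples, which may be technical. No RNA was measured, so the myotube state could not be checked against marker genes.

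Collagens are the main proteins of the extracellular matrix, built from chains that wind around each other in a helix. Fibrillar collagens form the cables of connective tissue, type IV forms the sheet of the basement membrane that wraps each muscle fibre, and the remaining classes decorate fibrils, link layers or sit in cell membranes. TEAD factors bind DNA at the MCAT element, whose core is GGAATG, and are known in muscle for their part in its gene programme.

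The stretch just upstream of the start is printed for Col3a1, Col1a2 and Col5a1, genes that passed the test below and that RefSeq's promoter table (GRCm38.p6) holds. Col4a2 and Col11a2 also passed and are in that table, but are not printed. Col3a1 and Col5a1 have the lowest and the highest G+C content among the collagen promoters compared below. Each is the 250 bases before the annotated start, 5′ to 3′ on the gene's strand, with any GGAATG or its reverse complement CATTCC in capitals. The positions are chr1:45311288-45311537, chr6:4505368-4505617 and chr2:27886175-27886424, all on the plus strand.
Col3a1: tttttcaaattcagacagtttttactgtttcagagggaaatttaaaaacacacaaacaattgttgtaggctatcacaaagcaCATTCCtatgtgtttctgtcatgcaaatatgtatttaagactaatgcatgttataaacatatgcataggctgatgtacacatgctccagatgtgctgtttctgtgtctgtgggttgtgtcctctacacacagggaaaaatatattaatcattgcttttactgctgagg
Col1a2: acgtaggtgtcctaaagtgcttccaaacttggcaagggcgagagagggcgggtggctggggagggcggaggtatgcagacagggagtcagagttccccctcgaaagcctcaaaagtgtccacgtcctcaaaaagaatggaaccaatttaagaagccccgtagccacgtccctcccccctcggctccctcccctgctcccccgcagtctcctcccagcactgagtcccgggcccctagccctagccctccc
Col5a1: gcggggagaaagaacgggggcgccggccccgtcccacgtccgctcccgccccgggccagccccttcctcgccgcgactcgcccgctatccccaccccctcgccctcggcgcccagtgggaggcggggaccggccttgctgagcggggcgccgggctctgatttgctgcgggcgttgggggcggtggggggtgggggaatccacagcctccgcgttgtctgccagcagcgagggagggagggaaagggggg

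The Col3a1 stretch holds 1 match, from -168 to -163 relative to the start, and the other two hold none. The table held 29 of the 36 genes, some with more than 1 start, and 3 of the 29 had GGAATG on either strand: Col3a1, Col6a2 and Col18a1. Over all 32841 promoters of the table, 12.6% held it in the same 250 bases. The AP-1 motif TGANTCA, which reads the same on both strands and whose opening TG can overlap the end of GGAATG, was in 1 collagen gene, Col6a1, against 6.75% of all promoters. These are matches of letters, not sites of binding.

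Values are log2 of precipitated (IP) over input DNA, centred on each array's median, so 0 is the level of the middle probe and 1 is a 2-fold excess. A window is the mean of a probe and its neighbours within 500 bp on each side, with at least 3 probes. The 36 genes had between 13 and 56 probes each. The IP signal was well above background for 99.9% of the 1198 collagen probes in each TEAD4 sample and for 96.4% in the control. Over all probes the control was nonetheless dim, with a median IP signal of 1.84 and 2.04 times background on its arrays. On the TEAD4 arrays it was 3.63 to 5.41 times background. The number of samples limits the precision as well. The libraries also differed in spread: the SD over all windows was 0.38 for TEAD4 sample 1, 0.40 for sample 2 and 1.04 for the control, and 1.08%, 2.22% and 26.4% of windows reached 2-fold. By their headers, the files of the control were extracted with extended dynamic range and those of TEAD4 without it, so this difference and the group cannot be told apart.

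Anti-Flag ChIP in TEAD4 cells was strongest, among these 36 genes, at chains of the fibril types I, III and V and at 1 chain of basement membrane type IV. Col26a1, which the arrays list under an older name and the 36 leave out, reached a mean of 1.12 and is described at the end. In the window with the highest TEAD4 mean, the leading genes were Col5a2 at 1.54 ± 0.52 (SD, n = 2), Col3a1, Col1a2, Col4a2, Col1a1 and Col5a1, and the order ended with Col10a1 at -0.08. At 2-fold or more over input in the same window of both TEAD4 samples there were 2 of 36 collagen genes (5.56%), Col5a2 and Col4a2, beside 5.19% of all genes. By limma, with Simes p-values per gene and Benjamini-Hochberg adjustment over all genes, 7 of 36 (19.4%) were higher than input at an adjusted p below 0.05, beside 23.9% of all genes. These were Col5a2, Col3a1, Col1a2, Col4a2, Col1a1, Col5a1 and Col11a2. None was lower, beside 11.8% of all genes, and 1, Col24a1, was lower at an unadjusted p below 0.05 by the same limma fit (of all 16533 genes, 3103). The shares at 2-fold and higher than input were close to or below those of all genes, and the share lower than input was smaller; no difference between collagens and other genes was tested.

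The median top window over the 36 genes was 0.34, against 0.40 over all genes, with a median of 32 windows a gene against 25. The 2 TEAD4 samples differed by a median of 0.28 in these windows, against 0.24 over all genes. Without TEAD4 sample 1 the 2-fold rule was met by 6 collagen genes (Col1a1, Col1a2, Col3a1, Col4a2, Col5a1 and Col5a2), 16.7% beside 15.5% of all genes. Without TEAD4 sample 2 it was met by 4 (Col3a1, Col4a2, Col5a2 and Col25a1), 11.1% beside 8.05%. Windows within 2000 bp of the start alone gave no limma call for Col1a1 and Col4a2, whose raised windows lie further out.

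**Figure D1:**
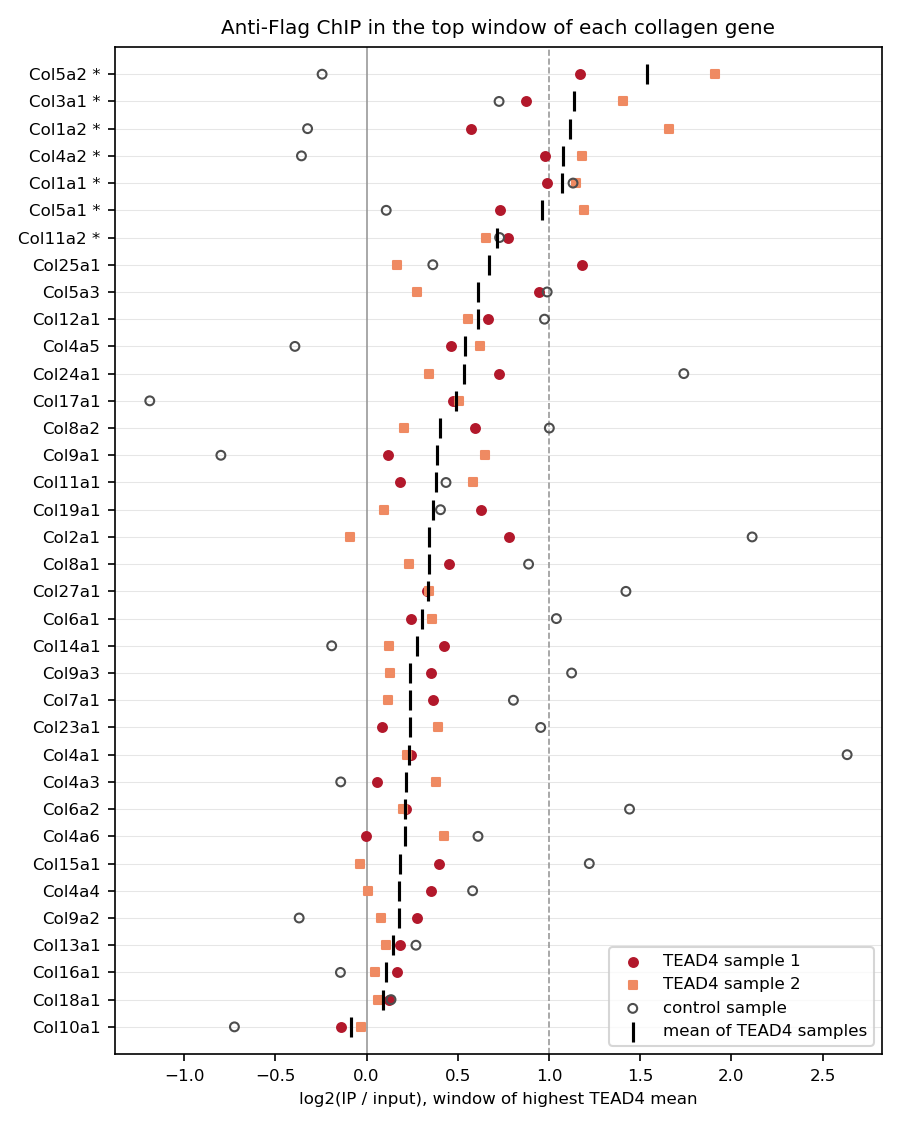
Log2 of IP over input in the window of highest TEAD4 mean for each of the 36 collagen genes, in TEAD4 sample 1 (circles), TEAD4 sample 2 (squares) and the control sample (open circles); black ticks are the mean of the 2 TEAD4 samples, the dashed line is 2-fold and asterisks mark the 7 genes higher than input by limma. The genes run from Col5a2 at 1.54 to Col10a1 at -0.08, and the control sample lies anywhere from well below to well above the TEAD4 samples.

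Fibrillar collagens gave 6 of those 7 calls, from 11 measured genes, where 23.9% of all genes were called. Their median top window was 0.72, against 0.34 for all collagens and 0.40 for all genes. By the 2-fold rule 1 of the 11 passed, beside 5.19% of all genes, and no difference between classes was tested. Col5a2, a chain of type V collagen, which controls the width of type I fibrils, had the highest signal. In its top window, at chr1:45447063-45447826 as the files give it and 319 bp downstream of the start, the value was 1.17 in TEAD4 sample 1, 1.91 in TEAD4 sample 2 and -0.24 in the control. Both TEAD4 samples thus stood above 2-fold while the control was below input. The mean was 2.91-fold over input, and the limma estimate was 1.54 (SE 0.19, adjusted p = 0.000724). The stretch in which both samples stayed at 1.5-fold or more ran from 31 to 736 bp, and the control stayed near or below 0 throughout it. Its edges depend on that cut. At -229 bp the TEAD4 samples were at 0.58 and 1.25 and the control at -0.07, and at 888 bp at 0.57 and 1.40 and -0.73. Further upstream, at -822 bp, both TEAD4 samples were again at 1.5-fold or more (0.61 and 0.59, control -0.62). With normexp background correction Col5a2 no longer met the 2-fold rule but remained higher than input by limma.

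Col3a1, the chain of type III collagen, which is the fine fibril of elastic and developing tissues, is the next protein-coding gene to Col5a2 in RefSeq's order. Its top window lay at chr1:45256249-45257160, 446 bp downstream of the start, with 0.87 and 1.41 for TEAD4 samples 1 and 2, and with 0.73 for the control. TEAD4 sample 1 was close to the control there, and the limma estimate over input was 1.14 (SE 0.18, adjusted p = 0.00279). Further in, at 756 bp, the TEAD4 samples were at 0.84 and 1.23 and the single control sample at -0.70. The Col3a1 call over control came from this window and was lost with normexp and with every array brought to the same median absolute deviation. Upstream, at -2321 bp, the TEAD4 samples were at 1.20 and 0.75 and the control at -0.70. The values were lower in between, down to -0.45 and 0.03 in the TEAD4 samples at -1180 bp. Col3a1 is also one of the genes with the MCAT core letters in the printed stretch, which lies between the windows at -2321 and 446 bp.

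The type I collagen genes encode the partner chains of the most abundant fibril of skin, bone and tendon. Col1a2 was highest at chr6:4457383-4458133, 2096 bp downstream of the start, with 0.57 in TEAD4 sample 1, 1.66 in sample 2 and -0.32 in the control. Only sample 2 passed 2-fold, and the samples differed by more here than at any other gene called higher than input. The limma call came from the window at 1549 bp, with 0.70 and 1.42, at an estimate of 1.06 (SE 0.19, adjusted p = 0.00732). In that window 4 of 6 control probes had an IP signal well above background. Col1a1 was highest far upstream, at -2421 bp (chr11:94749584-94750235), with 0.99 and 1.15 for TEAD4 samples 1 and 2, and with 1.13 for the control. The 3 values were alike, so this window was higher than input (limma estimate 1.07, SE 0.15, adjusted p = 0.00198) but not apart from the control. With windows of 250 bp each side Col1a1 joined the genes at 2-fold or more in both TEAD4 samples.

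Col5a1, the partner chain of Col5a2, had 0.73 and 1.19 in the TEAD4 samples and 0.11 in the control at 2360 bp (chr2:27710564-27711083), the end of its tiled region. Both TEAD4 samples were above the control in this window (limma estimate over input 0.96, SE 0.17, adjusted p = 0.00806). Around the start the order was the opposite: at 34 bp the TEAD4 samples were at 0.54 and 0.48 and the control at 2.50. Col5a3, the third type V chain, shares 10 probes with the retinol dehydrogenase gene Rdh8, and had 0.94 and 0.28 with 0.99 in the control (adjusted p = 0.0582 by limma). It passed with loess and with normexp correction. Col11a2, a chain of the cartilage fibril type XI, was called at 1337 bp from 3 probes, with 0.78 and 0.66 in the TEAD4 samples and 0.73 in the control (limma estimate 0.72, adjusted p = 0.0118). Its call was lost with normexp correction and with windows of 250 bp each side, and that of Col5a1 with normexp correction.

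The remaining fibrillar genes did not pass. Col2a1, the cartilage fibril chain, had 0.78 in TEAD4 sample 1 and -0.09 in sample 2, with 2.11 in the control. Col11a1 reached a mean of 0.38 and Col27a1 one of 0.34. Col24a1 had 0.73 and 0.34 at 286 bp with 1.74 in the control, and also the lowest TEAD4 window of any collagen, a mean of -0.69 at -1140 bp (adjusted p = 0.0587 by limma).

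**Figure D2:**
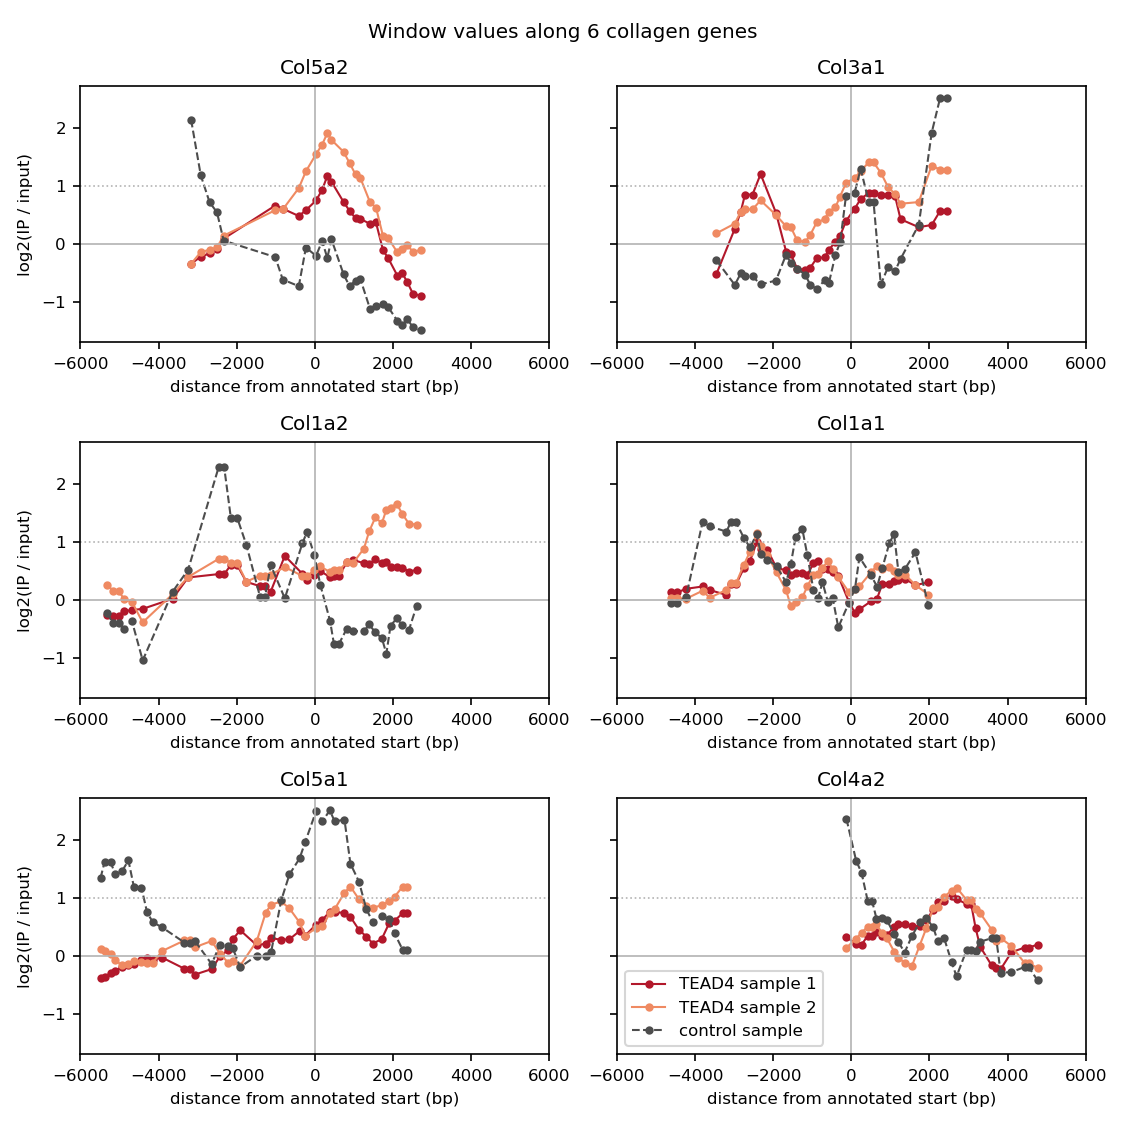
Log2 of IP over input of every window along 6 collagen genes, plotted by distance in bp from the annotated start, for TEAD4 samples 1 and 2 (solid lines) and the control sample (dashed line); the dotted line is 2-fold. Col5a2 peaks in both TEAD4 samples at 319 bp with the control near or below 0, Col1a1 has all 3 samples near 1 at -2421 bp, and Col5a1 and Col4a2 have a high control around the start and raised TEAD4 samples further in.

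Type IV collagen genes lie in head-to-head pairs, and RefSeq's order has each pair next to each other. Col4a1 and Col4a2, which encode the chains of nearly all basement membranes, shared 1 probe between their starts. The window centred on it had 0.33 and 0.14 in the TEAD4 samples and 2.37 in the control, a high control over TEAD4 samples near input. The raised part of Col4a2 lay inside the gene: at 2695 bp the TEAD4 samples were at 0.98 and 1.18 and the control at -0.36 (chr8:11315182-11316202), and at 2570 bp they were at 1.03 and 1.12 with the control at -0.11. It was the window at 2570 bp that met the 2-fold rule, with a limma estimate of 1.08 (SE 0.16, adjusted p = 0.00243). Both samples stayed at 1.5-fold or more from 2101 to 3069 bp. Col4a1, on the other side of the shared start, had no such region: its highest TEAD4 window, at 165 bp, was at 0.24 and 0.22 with the control at 2.64 (adjusted p = 0.988 by limma).

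Col4a3 and Col4a4, whose chains form the kidney filter's basement membrane, shared no probe. Col4a3 had 0.06 and 0.38 in its top window with -0.14 in the control, and its lowest TEAD4 mean was -0.57 at 2433 bp (adjusted p = 0.192 by limma). Some probes annotated to it lie as far as 134968 bp from its start, and some of Col23a1 as far as 291109 bp. Col4a4 reached a mean of 0.18. Col4a5 and Col4a6, on the X chromosome, shared 7 probes. Over the 7 windows centred on those probes the median was -0.23 for TEAD4 sample 1, -0.05 for sample 2 and 0.02 for the control. Col4a5 had 0.46 and 0.62 at 238 bp with -0.39 in the control (adjusted p = 0.0906 by limma), and elsewhere the third lowest TEAD4 window of the set, a mean of -0.54 at 3918 bp. Col4a6 had a top mean of 0.21.

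No gene of the remaining classes was called higher than input. Among them, type VI collagen, the beaded filament around muscle fibres, was measured through Col6a1 and Col6a2. Col6a1 had 0.25 and 0.36 with 1.04 in the control, and Col6a2 had 0.22 and 0.20 with 1.44 in the control. At both genes the TEAD4 samples lay close together and below the control. The anchoring fibril gene Col7a1 had a top mean of 0.24, and the short-chain genes Col8a1, Col8a2 and Col10a1 had 0.34, 0.40 and -0.08.

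Collagens that associate with fibrils (FACIT) were measured through 7 genes with a median top window of 0.28. Col12a1, found on fibrils of tendon and muscle fascia, came nearest the threshold, with 0.67 and 0.55 at 1460 bp and 0.98 in the control (limma adjusted p = 0.0523). It passed with loess, with windows of 250 or 1000 bp each side, and with windows within 2000 bp of the start alone. Col14a1 had 0.43 and 0.12 with -0.19 in the control. Col19a1, described in differentiating muscle cells, had 0.63 and 0.10 with 0.41 in the control. Col16a1 had 0.16 and 0.05 with -0.14 in the control. Col9a1, Col9a2 and Col9a3, the chains on cartilage fibrils, had top means of 0.39, 0.18 and 0.24.

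The multiplexins sit at the border of basement membranes. Col15a1 had 0.40 and -0.04 with 1.22 in the control, and Col18a1, the source of endostatin, had 0.12 and 0.06 with 0.13 in the control. Among the transmembrane collagens, Col25a1 had 1.18 in TEAD4 sample 1 but 0.17 in sample 2, from 3 probes at -1642 bp, with 0.36 in the control (adjusted p = 0.318 by limma). As at Col1a2, only 1 of the samples passed 2-fold. Col13a1, found at the neuromuscular junction, had 0.18 and 0.11 with 0.27 in the control. Col23a1 had 0.08 and 0.39 with 0.95 in the control, in a window 290613 bp from its annotated start. Col17a1, of the skin's hemidesmosomes, had 0.48 and 0.51 with -1.19 in the control (adjusted p = 0.114 by limma).

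Against the empty vector control, the limma fit takes the spread of the TEAD4 samples for the single control sample as well. In the window of lowest p, 5 of 36 collagen genes (13.9%) were higher in TEAD4 than in control, beside 12.4% of all genes, and 29 (80.6%) were lower, beside 81.0% of all genes. Among the genes called higher, only Col3a1 was also above input: at 756 bp the difference was 1.74 (SE 0.30, adjusted p = 0.0013). In the other 4 the TEAD4 samples were near input and the control was under it. At Col25a1 they were at 0.05 and -0.21 against -1.32, at Col4a5 at 0.04 and 0.20 against -0.95, at Col8a1 at -0.05 and 0.11 against -1.07, and at Col10a1 at -0.17 and -0.17 against -1.34. Col4a6 and Col11a1 passed in neither direction. These counts depend on how the arrays are scaled, and so do their directions. Without centring, where the control arrays' medians lie at -0.64 and -0.55 on the log2 scale, the split was 21 higher and 12 lower, beside 50.4% and 46.0% of all genes. It was 9 and 23 with loess (20.8% and 70.1% of all genes) and 1 (Col4a2) and 0 with normexp (1.98% and 4.86%). With every array brought to the same median absolute deviation it was 0 and 0, beside 0.774% and 0.206% of all genes.

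In the windows behind the 29 lower calls the control lay between 0.76 and 3.28. A gene's direction is that of 1 window, so it can be the opposite of its top window. Col5a2 was counted as lower from the window at -3168 bp, with -0.35 in each TEAD4 sample and 2.14 in the control, while in its top window the TEAD4 mean exceeded the control by 1.78. Col4a2 was counted as lower from the window on the shared probe and exceeded the control by 1.44 in its top window, and Col1a2 likewise by 1.44. The control reached 2-fold over input in some window of 33 of 36 collagen genes (91.7%), beside 85.6% of all genes, with none at Col4a5, Col10a1 and Col14a1. Its highest windows were at Col16a1, with 3.28 at -1759 bp against 0.19 and -0.57 in the TEAD4 samples, at Col23a1, with 3.23 at -100 bp against 0.37 and 0.10, and at Col13a1, with 2.88 at 245 bp against -0.05 and -0.03. With every array brought to the same median absolute deviation 14 collagen genes had such a control window (38.9%, beside 46.3% of all genes), and with normexp correction 4 had (11.1%, beside 19.0%). Asking for 2-fold over both input and control in the same window of both TEAD4 samples left the same 2 genes, Col5a2 and Col4a2 (5.56% of 36, beside 2.55% of all genes). Without TEAD4 sample 1 this rule was met by 5 genes, Col1a2, Col3a1 and Col5a1 being added (13.9%, beside 8.26% of all genes). With every array brought to the same median absolute deviation it was met by 6, those 5 and Col1a1 (16.7%, beside 9.04%).

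Within 500 bp of the start the TEAD4 samples were close to input at most collagen genes and the control was not. The median over 36 genes of the mean value there was 0.11 in each TEAD4 sample and 0.99 in the control, and over all genes it was 0.18 and 0.14 and then 1.23. Both TEAD4 samples were above the control at 5 of 36 genes (13.9%, beside 13.2% of all genes with such windows): Col1a1, Col1a2, Col4a5, Col5a2 and Col10a1. Of these, Col5a2 stood out in level, with 0.83 and 1.53 against -0.19. Col1a2 had 0.42 and 0.48 against 0.34, and Col1a1 had 0.09 and 0.30 against 0.09, nearly level with the control. The top window lay within 500 bp of the start at 8 of 36 collagen genes (22.2%, beside 34.0% of all genes) and further downstream at 16 (44.4%, beside 32.7%).

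The control level at the start went with base composition. Across the 26 collagen genes with a single start in the promoter table, the G+C content of the upstream 250 bases ran from 35.2% at Col3a1 to 76.4% at Col5a1. Its correlation with the mean value within 500 bp was r = 0.63 (rho = 0.54) in the control and r = 0.07 (rho = 0.30) in the TEAD4 mean. Over 8134 genes the same correlations were r = 0.62 and r = 0.35. The points of each correlation share the same arrays and genes are not independent replicates, so these are descriptions. In the stretches printed above, the AT-rich Col3a1 start had 0.59 in the control and the GC-rich Col5a1 start 2.20, while their TEAD4 means were 0.76 and 0.53. The Col1a2 start, with 62.0% G+C, had 0.34 in the control, below Col3a1, and a TEAD4 mean of 0.45. The part of base composition in the comparison with the control was not tested.

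**Figure D3:**
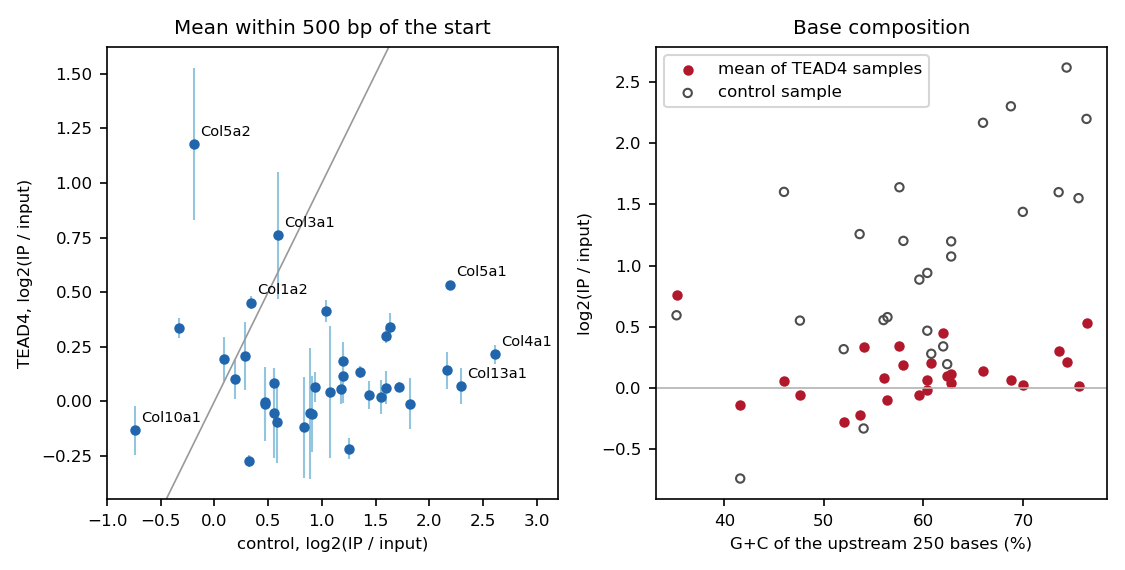
Left, mean log2 of IP over input within 500 bp of the start of each of the 36 collagen genes, TEAD4 (point, mean; bar, the 2 samples) against control, with the line of equal values; right, the same values against the G+C content of the 250 bases upstream for the 26 genes with a single start in the RefSeq promoter table. Col5a2 lies above the line at 1.18 against -0.19, most genes lie below it, and the control rises with G+C content (r = 0.63).

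Genes that make, cut, link, degrade or sense collagen were taken from a list of 47, of which 42 were measured. The list was chosen with earlier results of these data known, and no difference between it and other genes was tested. By limma 14 of the 42 (33.3%) were higher than input and 3 were lower, beside 23.9% and 11.8% of all genes, and 4 (9.52%) met the 2-fold rule, beside 5.19%. Against the control, 2 of the 42 were higher, Serpinh1 and Plod2, and 39 were lower, beside 12.4% and 81.0% of all genes. Of the 18 for modification and folding, 8 were higher than input. Serpinh1, which encodes the collagen chaperone HSP47, had 1.38 and 2.01 in the TEAD4 samples and 0.21 in the control at -722 bp. Both TEAD4 samples were above 2-fold and above the control in this window (limma over control 1.48, adjusted p = 0.0158). Its call over input came from another window, at -3713 bp, with a limma estimate of 1.61 (adjusted p = 0.000143). The lysyl hydroxylase gene Plod3 had 1.10 and 1.02 with 1.22 in the control (adjusted p = 0.002 over input), 3 values that lie together.

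The other genes of chain modification and folding that passed over input were P4ha1, Plod2, P3h1, Crtap, Fkbp10 and P3h4. Fkbp10 and P3h4 take the same top values and their calls rest on them, so they are not separate calls among the 14. The control lay above both TEAD4 samples at Crtap (3.23 against 0.82 and 0.40), P3h1 (2.74 against 0.80 and 0.83) and Fkbp10 with P3h4 (1.35 against 0.89 and 1.09). It lay below them at P4ha1, with -0.43 against 0.66 and 1.22. Plod2, a lysyl hydroxylase gene like Plod3, had 0.65 and 1.36 with -0.55 in the control. Pcolce, whose product enhances the trimming of procollagen, had the highest signal of the list, with 1.88 and 2.15 and 1.47 in the control at 840 bp (limma over input 2.02, adjusted p = 3.72e-05). The lysyl oxidase family gene Loxl3 had 1.22 and 1.23 with 2.06 in the control at 7 bp (adjusted p = 0.00161 over input), so there the control exceeded both TEAD4 samples. Among genes of breakdown and its inhibitors, Timp3, Mmp14 and Timp2 were higher than input and Mmp13 and Ctsk lower, as was Pcolce2 of the processing list. The control lay above both TEAD4 samples at Timp2 (1.30 against 0.58 and 0.72). It lay below them at Timp3 (0.78 against 0.94 and 1.04) and Mmp14 (0.18 against 0.67 and 0.70). Of the receptors, Ddr1, a collagen-binding receptor kinase, had 0.86 and 2.06 with 1.32 in the control (adjusted p = 0.0019 over input).

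**Figure D4:**
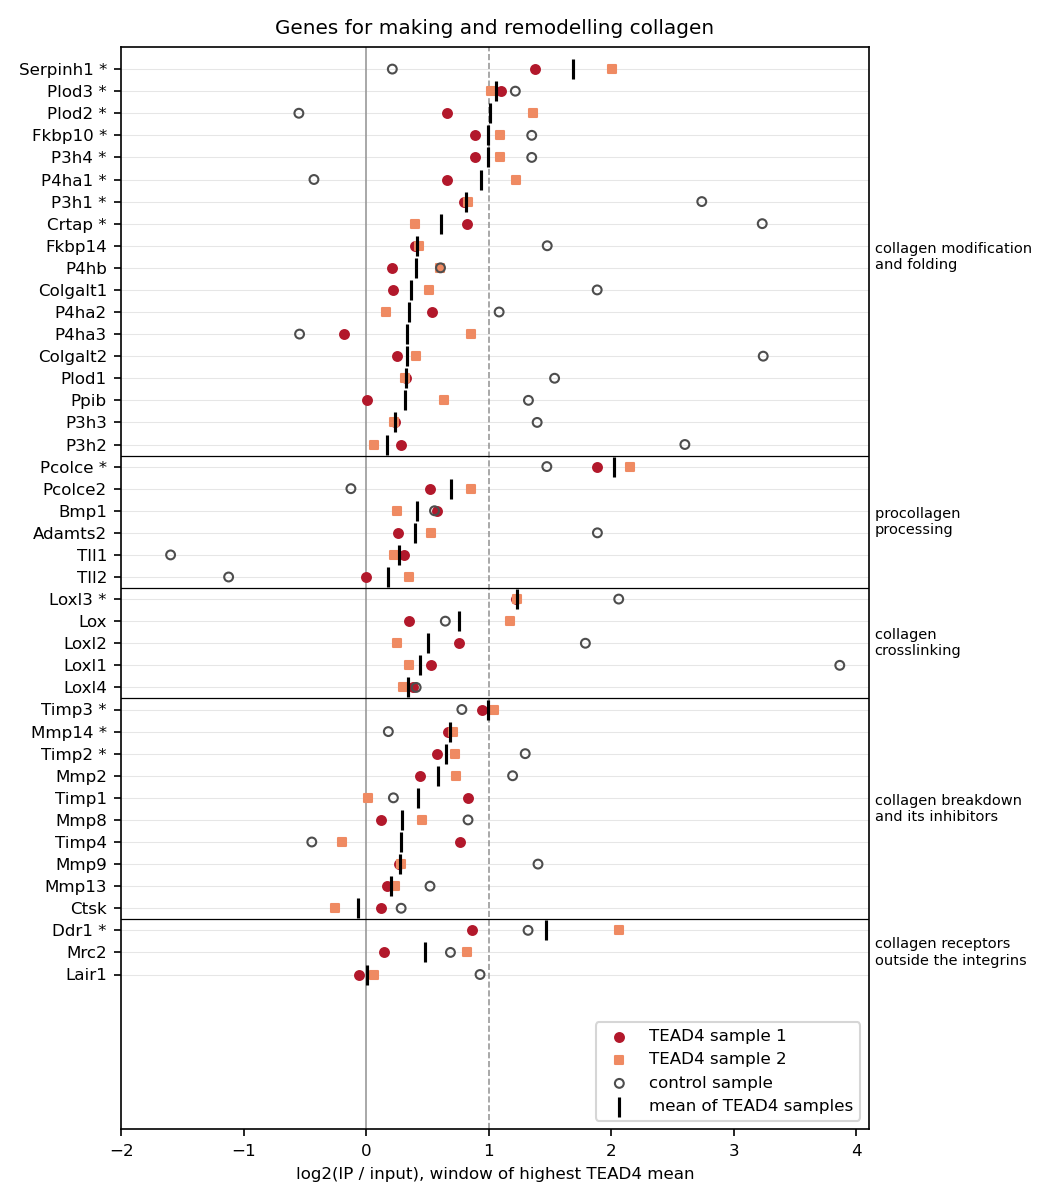
Log2 of IP over input in the window of highest TEAD4 mean for the 42 measured genes of collagen modification, processing, crosslinking, breakdown and reception, with the symbols of the plot of the collagen genes themselves; asterisks mark the 14 genes higher than input by limma. Serpinh1 has both TEAD4 samples above 2-fold with the control at 0.21, while Loxl3 and Pcolce reach 2-fold beside a control of 2.06 and 1.47.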

How the data were processed

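C2C12 chromatin from 2 TEAD4 samples and 1 control sample was measured on 6 arrays, 2 designs a sample, with IP DNA in Cy5 and input DNA in Cy3 on every array per the labels' protocols. Per the file headers, the authors obtained the intensity values with the scanner software Agilent Feature Extraction 9.5.3.1. Deposited log10 ratios served 1 alternative and equal the series' value table (largest difference 0). Other deposited columns (flags, positions and annotation) were used as given. The probes' genome build is not given in the sources, so window coordinates are those of the files.

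Processed intensities were turned into log2 of IP over input and centred by array on the median. Control spots, unplaced probes and those any array flagged as non-uniform were dropped, which left 236180 and 235690 probes and 213809 and 214211 windows on the 2 designs. Windows (500 bp each side, at least 3 probes) were fitted separately by design with limma 3.58.1 (R 4.3.3), over all windows. The fit has 1 residual degree of freedom from the duplicates and borrows its spread across windows. A gene's p is Simes' over its windows, two-sided and adjusted by Benjamini-Hochberg over 16533 genes, and its direction is that of the window of lowest p. The steps were checked on simulated data with independent probes and the same spread in every sample. The measured control windows spread wider (SD 1.04 against 0.38 and 0.40 in the TEAD4 samples). The simulation therefore could not check the calls against the control. With independent probes it also could not show how signal shared by neighbouring probes affects the calls over input. Distances are the annotation's, and rise in the direction of transcription in all 29 collagen genes with a RefSeq strand. Each slide held 1 array, so no slide block could be fitted.

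Every collagen gene is named. Values per sample are given for genes at 2-fold in both TEAD4 samples, for a fixed list of chains known in muscle or connective tissue, for the 3 genes with the highest control window and the 3 with the lowest TEAD4 window. Other genes were given values where a comparison needed them. The members, gene lists and rules were chosen with earlier results of these data known. Related genes were matched through RefSeq accessions, then symbols. Alternatives covered background correction, loess, window size, probe minimum, dim and flagged probes, distance, centring, scaling, fold and leaving out a TEAD4 sample.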

Additional observations from a re-analysis of the deposited data

How the results depend on the processing

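Of 77 counts of collagen genes recomputed under an alternative, 49 stayed within 1.5 times the count reported. The count higher than input by limma did so under all 9 alternatives run for it, at 6 to 10 genes against 7. Over all genes that share ran from 12.4% with normexp to 31.7% with loess, beside 23.9% as reported. Of 44 top window values recomputed with normexp or loess, 35 moved by less than the spread between the duplicates. Col11a2 was not among the genes recomputed, and none of the other called genes changed sign. With normexp the value at Col3a1 fell from 1.14 to 0.60, the only move beyond that spread among these called genes. At Col1a2, where the duplicates lay far apart, it fell from 1.12 to 0.56.

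The 2 genes at 2-fold over input in both TEAD4 samples became 7 at 1.5-fold, 0 at 3-fold and 0 with 1000 bp each side. They became 1 with loess (Col5a2), with normexp (Col4a2) or within 2000 bp of the start (Col5a2). Of all genes, 20.2% passed at 1.5-fold, 0.78% at 3-fold and 2.21% with 1000 bp each side, beside 5.19% as reported. With loess, with normexp and within 2000 bp the share was 5.38%, 3.35% and 4.03%. Leaving out a TEAD4 sample gave 4 to 6, beside 8.05% to 15.5% of all genes. The 2 genes at 2-fold over both input and control became 5 at 1.5-fold, 0 at 3-fold and 0 with 1000 bp each side. They became 1 with loess, 1 with normexp, 1 within 2000 bp, and 6 with every array brought to the same median absolute deviation (scaled arrays). By this rule leaving out a TEAD4 sample gave 3 to 5, beside 3.87% to 8.26% of all genes. The share of all genes was 2.55% as reported, 9.11% at 1.5-fold, 0.411% at 3-fold and 0.968% with 1000 bp each side. It was 2.55% with loess, 2.51% with normexp, 1.78% within 2000 bp and 9.04% with scaled arrays. No gene was lower than input in the reported fit, against 2 with 1000 bp each side (Col10a1 and Col24a1) and 1 with loess (Col24a1). The shares of all genes were 11.8%, 14.9% and 15.5% in turn. The 5 genes higher than control became 8 with 1000 bp each side, 9 with loess, 21 without centring, 1 with normexp (Col4a2) and 0 with scaled arrays. The 29 lower ones became 12 without centring, 0 with normexp and 0 with scaled arrays. Of all genes, 12.4% were higher as reported, 15.0% with 1000 bp each side and 20.8% with loess. That share was 50.4% without centring, 1.98% with normexp and 0.774% with scaled arrays. Lower than control were 81.0% of all genes as reported, 46.0% without centring, 4.86% with normexp and 0.206% with scaled arrays. The 33 genes with a control window at 2-fold became 14 with scaled arrays and 4 with normexp. Of all genes, 85.6% had such a window as reported, 46.3% with scaled arrays and 19.0% with normexp. The cause of these moves was not tested.

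Leaving out a TEAD4 sample leaves no residual degree of freedom, so limma gave no value there. No paired analysis was possible because the control has a single sample with no number, so the groups share fewer than 2 replicate numbers. Signal over background limits the control most: the median IP signal was 1.84 and 2.04 times background on its arrays, against 3.63 to 5.41 on the TEAD4 arrays.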

Other observations

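The arrays list a pair of further collagen genes under older names, which the spelling of the symbols does not catch. Col26a1 appears as Emid2, with 1.23 and 1.02 in the TEAD4 samples and -0.12 in the control, from 3 probes at -4060 bp (chr5:137171646-137172192 as the files give it). Both TEAD4 samples were above 2-fold and the control was at input, and the limma estimate over input was 1.12 (adjusted p = 0.00165). Against the control its window of lowest p was another, at 35 bp, where TEAD4 was lower (limma difference -3.38, adjusted p = 1.92e-06). Col6a6 appears as E330026B02Rik, with 0.30 and -0.08 in the TEAD4 samples and 0.92 in the control, and did not pass over input (adjusted p = 0.0847 by limma). Of the 44 collagen symbols in the RefSeq table, 36 were on the arrays by that symbol and 2 by another. The other 6, Col6a3, Col6a4, Col6a5, Col20a1, Col22a1 and Col28a1, were not analysed here.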
